A study of Mus musculus with 6 samples.

Results

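Interferon-stimulated genes and their regulators were followed in mouse pancreatic tumour organoids that kept or lost the second Trp53 allele. The genes were listed by name with earlier results of these data known, so the list is not independent of the data. They were 35 of the 53379 annotated genes. The list held 4 transcription factors, 4 nucleic acid sensors, 6 RNA-activated enzymes and relatives, 3 IFIT proteins, 6 genes of ISG15, ubiquitin or ADP-ribose transfer, 4 GTPases and 8 other effectors. All 35 were found, and 23 passed the filter on low counts and were tested.

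Organoids are epithelial cultures, grown here in a dome of Matrigel (basement membrane gel) in a complete organoid medium. The cells came from KPC tumours of C57/Bl6 mice, which carry the LSL allele Trp53LSLR172H together with Pdx1-Cre, so that recombination follows the Pdx1 promoter of the pancreatic epithelium. Both groups carry Trp53 R172H. The 3 heterozygous libraries are labelled Trp53LSLR172H/+, and the 3 LOH libraries (loss of heterozygosity) Trp53LSLR172H/-. Each of the organoid lines 6, 23 and 34 gave 1 library of each kind. The age of the mice is not stated in the labels. Descriptions of LOH samples carry an added suffix whose meaning is not given, and whatever it marks cannot be told apart from the genotype. No label says that the libraries of a group came from separate mice, or cultures, so p-values measure only the spread between these libraries.

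Cells meet viral or misplaced nucleic acids with sensors such as RIG-I (Ddx58) and MDA5 (Ifih1), whose signal leads to secreted interferons. Interferons bind receptors that activate JAK kinases, and a complex that holds STAT2 and IRF9 then binds the interferon-stimulated response element (ISRE) of target genes. The targets include the sensors and factors themselves, so that the pathway feeds back on its own parts. They also include effectors that lead to the decay of RNA, stop translation or trap virions.

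Libraries held between 13680458 and 27917277 expected counts, and 3 counts equalled 0.1 to 0.223 CPM (counts divided by library size, with TMM scaling). Epithelial markers summed to 5180 to 5979 CPM in the heterozygous and 5049 to 11140 CPM in the LOH libraries. Of 20 leukocyte markers 9 had no count in any library, Lyz2, Tyrobp and Adgre1 among them, 15 never exceeded 3 counts, and Ptprc reached at most 7 counts. The summed leukocyte markers lay at 52.2 to 63.8 CPM and 23.6 to 102.5 CPM, mostly from Cd14, Bst1 and Cd68. The summed fibroblast markers lay at 0.0742 to 0.167 CPM and 0.605 to 1.11 CPM, and the endothelial ones at 0.223 to 0.3 CPM and 0.605 to 2.91 CPM, so both were higher in every LOH library. Over the 6 libraries the fibroblast markers summed to 1 to 23 counts and the endothelial markers to 3 to 50 counts. Their part in the differences below was not tested.

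Transcripts of the listed interferon genes were scarce in both groups. A list of 69 further interferon-stimulated genes, read below, summed to 1120 to 1192 CPM in the heterozygous and 1549 to 1789 CPM in the LOH libraries. The 35 genes together took from 0.015% to 0.0311% of the counts of a library, and their summed TPM (abundance per transcript length) in lines 6, 23 and 34 was 94.3, 84.3 and 84.98 for heterozygous and 97.8, 114.1 and 134.4 for LOH. The summed level was thus highest in LOH lines 34 and 23, and LOH line 6 lay close above the heterozygous libraries. Bst2, which tethers budding virions to the cell, had the highest level per length, with a mean of 18.5 TPM, at percentile 73.4 of the genes tested. Irf1, a transcription factor that interferon and inflammatory signals induce, followed with 11.3 TPM at percentile 61.4. At the low end, 9, 8 and 8 of the genes had 3 counts or fewer in heterozygous lines 6, 23 and 34, and 10, 2 and 2 of them in the LOH lines.

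In the comparison of 3 LOH against 3 heterozygous libraries, which asks what differs once the second Trp53 allele is lost, 4 of the 23 tested genes rose and 0 fell (edgeR quasi-likelihood test, Benjamini-Hochberg adjusted p under 0.05 over 14537 genes). The 4 were Irf7, Oas1a, Oas3 and Oasl1. Among all genes tested 3.55% rose and 1.66% fell. At an unadjusted p under 0.05 there were 15 of the 23, against 3681 of the 14537 genes in all. Fewer cells with a transcript and less of it per cell cannot be told apart in these bulk libraries. With the organoid line as a block, only Oasl1 of the 23 rose, where 1.22% of all genes did. The count of 4 was 16 without LOH line 6, where 2449 of 15132 genes in all were called, and 1 without LOH line 23, where 451 were. It was 0 without heterozygous line 6, 23 or 34, where edgeR called 0 of all genes, and 11, 15 and 11 of 29 interferon genes had an unadjusted p under 0.05. Over all genes 2966 of 15113, 2637 of 15319 and 2272 of 15139 did. The counts of called interferon genes moved with those over all genes.

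The log2 fold change was above 0 for 21 of the 23 genes, against 54% of all genes, and Ifit2 and Bst2 were the 2 exceptions. The median was 1.14, against 0.06 over all genes. In 14 of the 23 every LOH library lay above every heterozygous one, against 16.4% of all genes, and in 0 of the 23 every LOH library lay below, against 16.5%. Of the 23, 4 (Oas3, Oasl2, Mx1 and Cmpk2) reached the filter on low counts without passing it in every heterozygous library, which favours genes high in the other group. The 19 that passed it in every heterozygous library had a median of 0.87, with 3 called and 12 non-overlapping.

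The size of the difference varied by organoid line. Within line 6 the median log2 ratio of LOH to heterozygous was 0.59, within line 23 it was 0.96 and within line 34 it was 1.47, against -0.01, 0.03 and 0.06 over all genes. In line 6 the ratio was above 0 for 19 of the 23, in line 23 for 21 and in line 34 for 22, against 49.3%, 51.4% and 52.4% of all genes. It was above 0 in all 3 lines for 17 genes, against 22.9% of all genes. On log2(TPM + 1) the level of all genes shifted, since their median over genes that reached 1 TPM in 3 or more libraries was -0.35 against 0.34 for the 15 of the 23 in that set, and no member of that set changed direction.

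**Figure D1:**
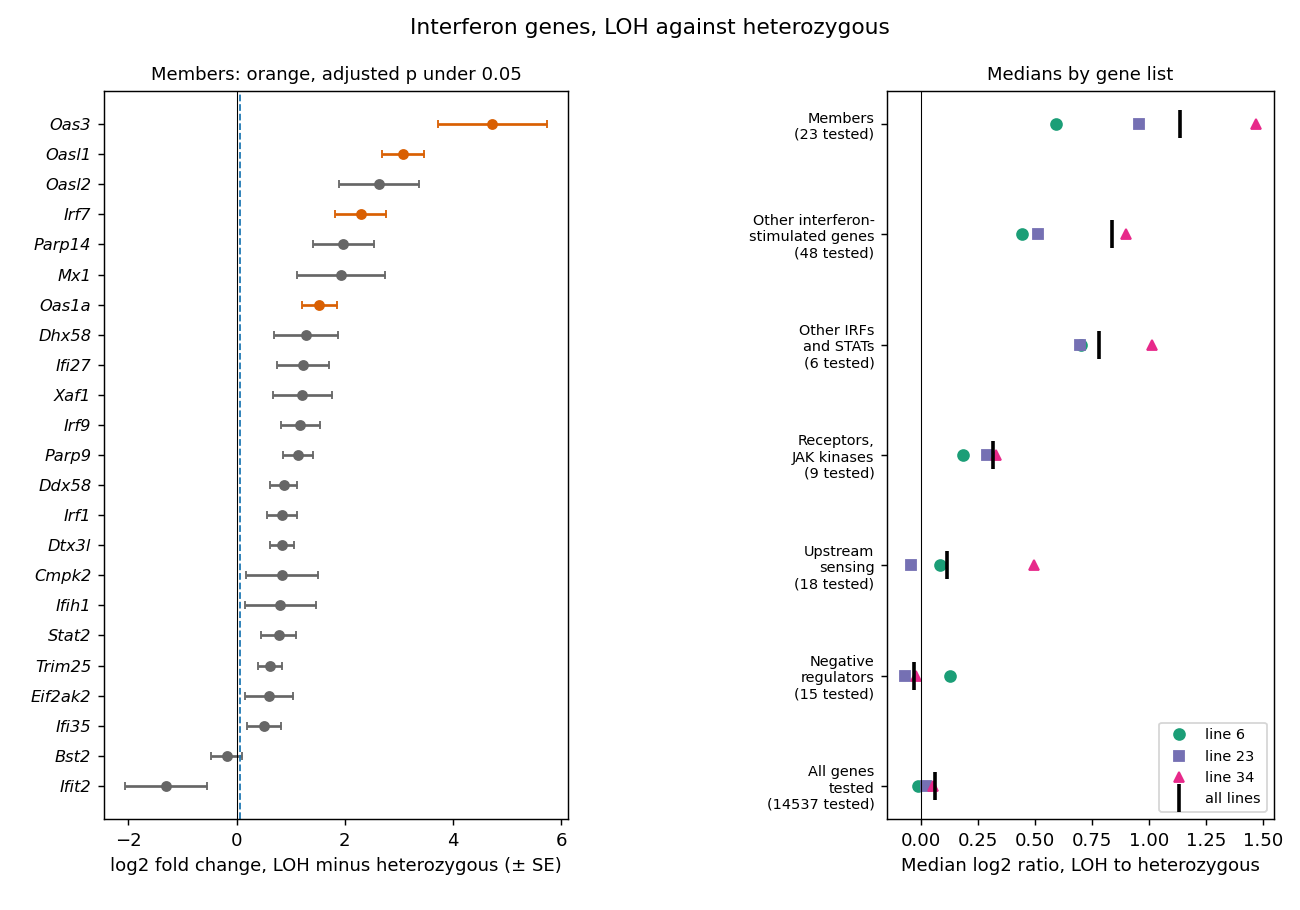
Left, the log2 fold change of each tested interferon gene, LOH minus heterozygous, with bars of 1 SE. Orange points passed an adjusted p under 0.05 in edgeR's test without a block, and the dashed line is the median of all genes at 0.06. Right, the median log2 ratio of each gene list within lines 6, 23 and 34 (points) and the median fold change over all lines (black bars). The 23 interferon genes have medians of 0.59, 0.96 and 1.47 by line, while all genes stay between -0.01 and 0.06.

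The promoters of the genes that carry this result are shown because the ISRE is the sequence through which interferon factors act. RefSeq promoter windows of build GRCm38.p6, 250 bases before to 50 bases after a start site, matched 25 of the 35 genes. The ISRE core, read as GAAA, any 2 bases and GAAA, was searched on both strands, and overlapping matches were allowed. It was found in 13 of the 25 genes (52%), against 3.99% of 27025 genes with a window. The core of the gamma-activated site, the element of interferon gamma signalling, was read as TTC, any 3 bases and GAA, and was found in 6 of the 25 (24%) against 9.55%. A match is a description of the letters and shows no binding.

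The stretches below end at the start site or, where the GENCODE gene begins earlier, at that point, and run 5′ to 3′ on the strand of the gene. Capitals mark each ISRE core. They are the 4 genes that rose, followed by Isg15 and Ifit1, classical interferon targets with few counts here. Their positions are chr5:114922990-114923239 (plus) for Oasl1, chr5:120907526-120907775 (minus) for Oas1a, chr5:120777662-120777909 (minus) for Oas3, chr7:141266482-141266674 (minus) for Irf7, chr4:156200819-156201068 (minus) for Isg15 and chr19:34640639-34640870 (plus) for Ifit1.
Oasl1: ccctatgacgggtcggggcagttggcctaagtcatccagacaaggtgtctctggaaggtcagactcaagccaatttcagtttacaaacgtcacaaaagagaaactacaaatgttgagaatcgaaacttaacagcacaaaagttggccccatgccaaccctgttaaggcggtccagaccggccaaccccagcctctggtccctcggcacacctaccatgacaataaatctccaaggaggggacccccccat
Oas1a: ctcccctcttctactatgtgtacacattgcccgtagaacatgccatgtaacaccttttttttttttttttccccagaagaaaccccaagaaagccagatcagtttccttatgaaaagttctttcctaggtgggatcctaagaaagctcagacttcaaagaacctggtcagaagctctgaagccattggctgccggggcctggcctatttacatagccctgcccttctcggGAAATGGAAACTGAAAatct
Oas3: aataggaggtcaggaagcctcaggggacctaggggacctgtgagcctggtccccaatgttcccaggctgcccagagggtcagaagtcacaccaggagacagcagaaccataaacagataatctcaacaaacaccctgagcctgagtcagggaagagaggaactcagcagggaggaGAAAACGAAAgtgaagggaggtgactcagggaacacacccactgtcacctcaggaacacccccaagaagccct
Irf7: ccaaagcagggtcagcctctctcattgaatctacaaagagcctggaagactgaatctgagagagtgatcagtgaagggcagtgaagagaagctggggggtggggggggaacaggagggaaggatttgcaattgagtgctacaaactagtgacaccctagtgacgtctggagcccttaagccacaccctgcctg
Isg15: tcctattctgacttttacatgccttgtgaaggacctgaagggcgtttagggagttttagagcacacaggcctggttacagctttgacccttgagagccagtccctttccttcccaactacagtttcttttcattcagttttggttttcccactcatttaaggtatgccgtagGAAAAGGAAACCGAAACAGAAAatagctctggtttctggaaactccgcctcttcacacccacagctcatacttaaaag
Ifit1: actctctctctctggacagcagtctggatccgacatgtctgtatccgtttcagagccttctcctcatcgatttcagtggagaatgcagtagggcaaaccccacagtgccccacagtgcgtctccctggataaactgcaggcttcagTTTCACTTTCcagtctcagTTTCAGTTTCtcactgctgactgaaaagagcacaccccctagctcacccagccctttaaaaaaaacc

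The cores lay at different distances. Oas1a held 2 overlapping copies at positions -20 to -11 and -14 to -5 from the start, and Oas3 held 1 at -75 to -66. Isg15 held a run of 3 overlapping copies from -78 to -57, and Ifit1 held 2 on the opposite strand at -104 to -95 and -85 to -76. The windows of Oasl1 and Irf7 held none of these letters. Among the sensors Ddx58 and Ifih1, and in Eif2ak2, the core lay after the start, at positions 3, 33 and 19.

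**Figure D2:**
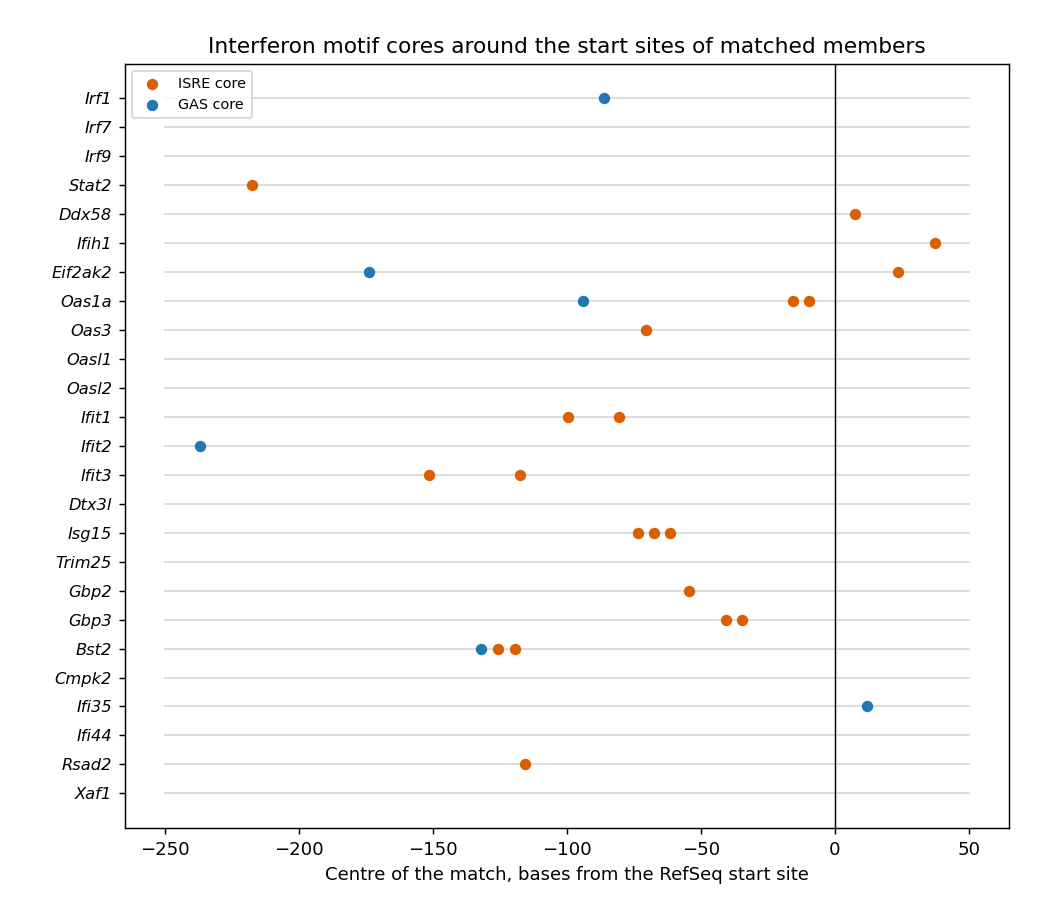
Positions of the ISRE core (orange) and of the gamma-activated site core (blue) in the promoter windows of the 25 interferon genes that matched, by distance in bases from the RefSeq start site. Of the 25, 13 hold an ISRE core, and the rows of Oasl1 and Irf7 are empty.

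All 4 transcription factors were tested and each had its 3 LOH libraries above its 3 heterozygous ones, against 16.4% of all genes. The edgeR adjusted p passed for Irf7 alone, where 3.55% of all genes rose. Irf7 (ENSMUSG00000025498.15; chromosome 7, 141262706 to 141266481, minus strand, GRCm38) encodes the factor that amplifies the production of type I interferon. Its level in lines 6, 23 and 34 was 1.7, 2 and 1.94 CPM for heterozygous and 5.36, 6.42 and 15.9 CPM for LOH, and values of other genes follow the same order. The groups did not overlap, and LOH line 34 stood well above the other LOH libraries. The mean of Irf7 rose from 1.88 ± 0.158 to 9.23 ± 5.82 CPM (SD, n = 3 each). In edgeR this was a log2 fold change of 2.30 ± 0.47 (SE) at an adjusted p of 0.0422. With the line as a block the edgeR adjusted p was 0.0885.

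The call of Irf7 was lost without some of the libraries. With heterozygous line 6, 23 or 34 left out, where edgeR called 0 of all genes, its log2 fold change was 2.20, 2.33 and 2.31 at an adjusted p of 0.169, 0.164 and 0.195, and without LOH line 23 it was 2.5 at an edgeR adjusted p of 0.0586. Leaving out LOH line 34 instead lowered its log2 fold change to 1.64 and kept the call (edgeR adjusted p = 0.0405). The rise was seen in transcripts that encode protein, whose counts in the order of lines were 22.6, 10.4 and 35.5 (heterozygous) and 53.9, 125.7 and 303.0 (LOH). Transcripts with a retained intron went from 18.3, 16.6 and 22.5 counts to 36.5, 44.3 and 39. The coding share of the pooled counts was 50.4% in the heterozygous and 79.9% in the LOH libraries, and LOH line 34 gave most of the LOH coding counts. By library the groups overlapped in this share: LOH line 6 (53.9 of 92 counts) lay just below heterozygous line 34 (35.5 of 58). Irf7 overlaps Phrf1 on the opposite strand. Phrf1 had 76.3 to 88.4 CPM in the heterozygous and 47.7 to 66.7 CPM in the LOH libraries, the opposite order to Irf7.

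The other 3 factors did not pass in edgeR, and DESeq2 called Irf9 of them (DESeq2 adjusted p = 0.0345). Among all genes DESeq2 called 2249 of 16449. Irf9, the DNA-binding partner of STAT2, had 5.54, 9.13 and 6.71 CPM against 10.4, 14.7 and 23.1 CPM in LOH, with LOH line 34 highest. Its log2 fold change was 1.18 ± 0.36 (SE) at an edgeR adjusted p of 0.101. Irf9 shares its strand with the overlapping gene Rnf31, which had 11.5 to 11.8 CPM and 11 to 15.8 CPM. Stat2, the partner that brings the activation domain, had 6.57, 6.6 and 6.64 CPM against 7.16, 10.8 and 16.1 CPM. The heterozygous libraries were almost level and LOH line 6 lay just above them, and the log2 fold change was 0.78 ± 0.33 (SE) at an edgeR adjusted p of 0.190.

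Irf1 had 12.4, 16.2 and 14.1 CPM against 17.2, 33.8 and 25.6 CPM in LOH. LOH line 6 was again the nearest to the heterozygous range, and the log2 fold change was 0.84 ± 0.28 (SE) at an edgeR adjusted p of 0.122. Without LOH line 6, Irf1, Stat2 and Irf9 passed together with Irf7, in a setting where 2449 of 15132 genes in all were called.

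**Figure D3:**
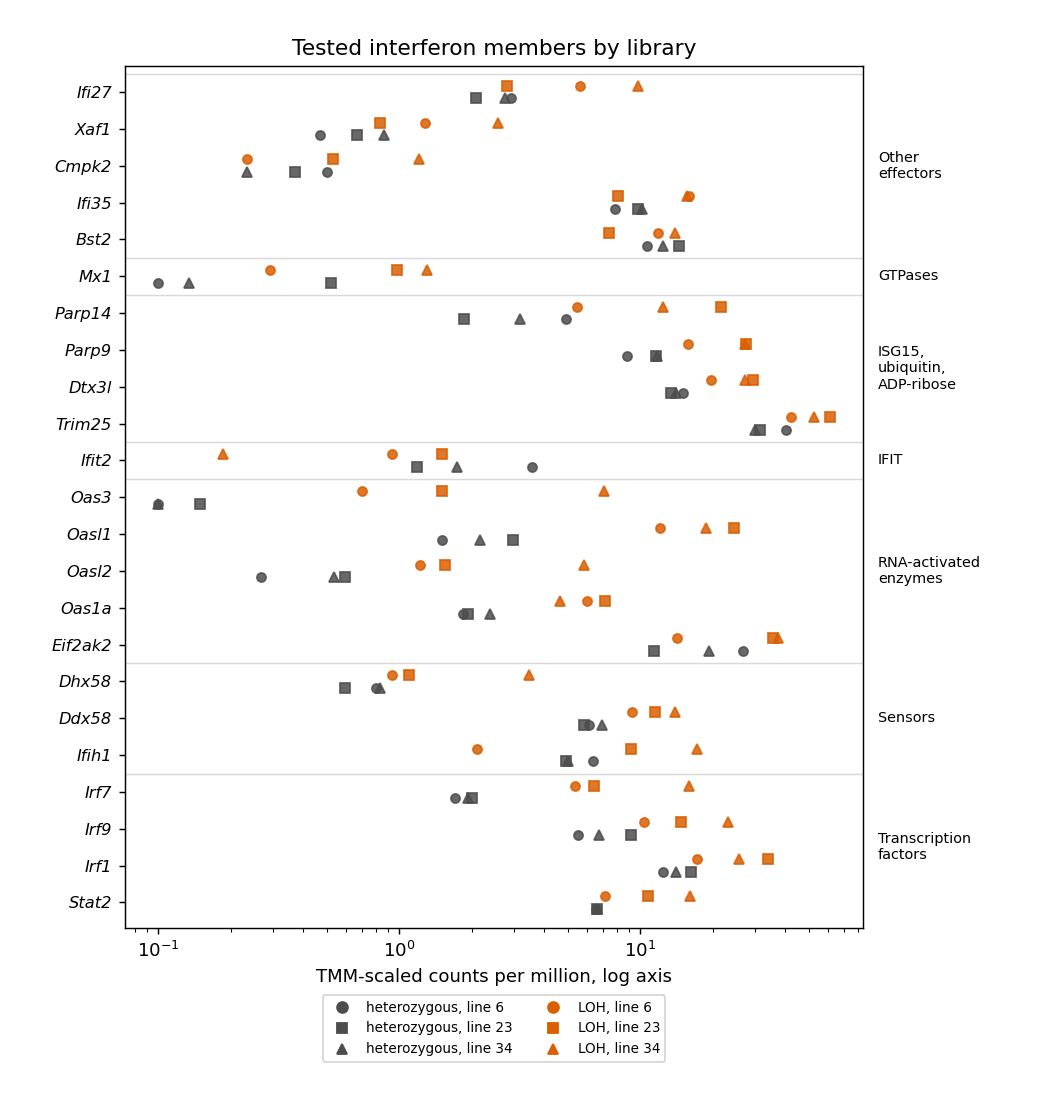
TMM-scaled CPM on a log axis for the 23 tested interferon genes, grouped by role. Each point is 1 library, grey for heterozygous and orange for LOH, with a shape for each line. The orange points of Irf7 (5.36 to 15.9 CPM) and Oasl1 (12.1 to 24.4 CPM) lie clear of the grey ones. Those of Ifih1 lie below and above the grey points, and those of Eif2ak2 lie inside and above the grey range.

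Of 4 sensors 3 were tested, and edgeR called 0 of them, with 1 at an unadjusted p under 0.05, against 3681 of 14537 genes in all. DESeq2, an alternative test that called 2249 of 16449 genes in all, called Ddx58. Ddx58 (RIG-I), which recognises RNA with a triphosphate end, had 6.11, 5.86 and 6.94 CPM against 9.26, 11.6 and 13.9 CPM in LOH. The groups did not overlap, with a log2 fold change of 0.87 ± 0.25 (SE) at an edgeR adjusted p of 0.0855. Dhx58 (LGP2), a relative without a signalling domain that modulates the other sensors, had 0.8, 0.59 and 0.83 CPM against 0.93, 1.09 and 3.45 CPM. LOH line 34 alone stood apart from the heterozygous range by a wide margin, and the log2 fold change was 1.28 ± 0.59 (SE) at an edgeR adjusted p of 0.230.

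Ifih1 (MDA5), the sensor of long double-stranded RNA, had 6.34, 4.9 and 5.01 CPM against 2.1, 9.17 and 17.2 CPM. LOH line 6 was below every heterozygous library and the other LOH libraries were above, and lines 6, 23 and 34 gave log2 ratios of -1.56, 0.89 and 1.77. The log2 fold change was 0.81 ± 0.65 (SE) at an edgeR adjusted p of 0.465. Zbp1, a sensor of Z-form nucleic acids, had 1, 0 and 0 counts against 0, 2 and 3 counts, which is at or under the floor of 3 counts in every library.

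**Figure D4:**
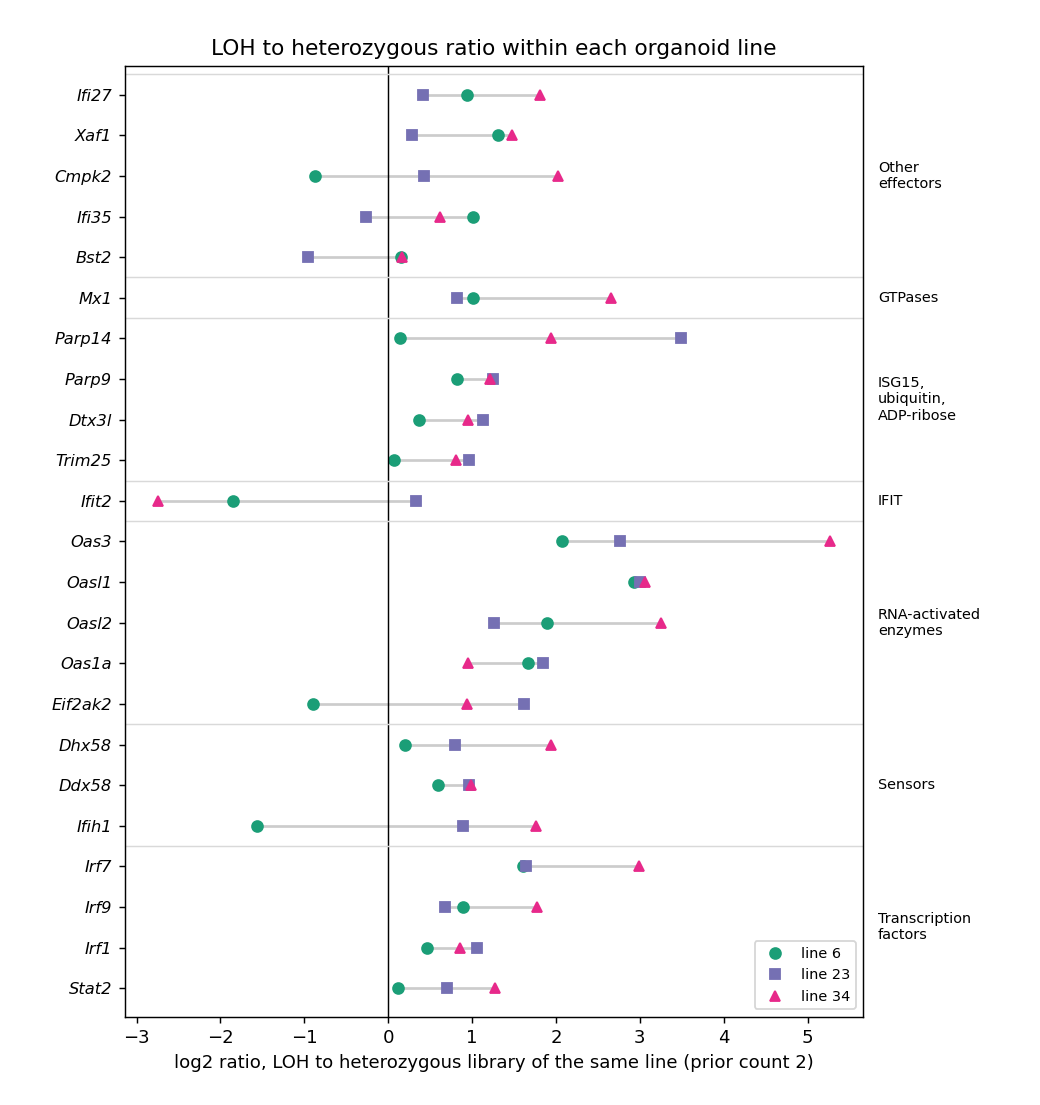
The log2 ratio of the LOH to the heterozygous library of the same organoid line (prior count 2) for each tested interferon gene, with a colour and shape for each line. Oasl1 has almost the same ratio in the 3 lines (2.93, 3 and 3.06), whereas Ifih1 runs from -1.56 in line 6 to 1.77 in line 34.

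Of the 4 genes that rose, 3 were RNA-activated enzymes or relatives, 1 of which (Oas3) passed the filter on low counts through the LOH libraries alone. The OAS enzymes make 2-5A, a short RNA that switches on RNase L, when they bind double-stranded RNA. Oasl1 (ENSMUSG00000041827.15; chromosome 5, 114923240 to 114937915, plus strand) encodes an OAS relative without that activity, known to hold back the translation of Irf7. Its level was 1.5, 2.97 and 2.17 CPM against 12.1, 24.4 and 18.7 CPM in LOH. Every LOH library was several times above the highest heterozygous one.

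The mean of Oasl1 rose from 2.21 ± 0.734 to 18.4 ± 6.19 CPM (SD, n = 3 each). This was 3.07 ± 0.39 (SE) on the log2 scale, with an edgeR adjusted p of 0.0164 without and 0.0318 with the line as a block. The ratio was close to constant over the lines, at 2.93, 3 and 3.06 on the log2 scale in lines 6, 23 and 34. Oasl1 was called in 13 of 18 alternatives, against 8 of 18 for Irf7, 7 of 18 for Oas1a and 7 of 15 for Oas3. Without heterozygous line 6, 23 or 34 the edgeR adjusted p of Oasl1 was 0.106, 0.0889 and 0.103. In these settings edgeR called 0 of all genes, and 2966, 2637 and 2272 had an unadjusted p under 0.05. Without line 23 or line 34 it was 0.143 and 0.122. The antisense gene Gm13822 within the Oasl1 locus had at most 6 counts in any library.

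Oas1a (ENSMUSG00000052776.10; chromosome 5, 120896256 to 120907521, minus strand) had 1.83, 1.93 and 2.37 CPM against 6, 7.14 and 4.66 CPM. The groups did not overlap, and here LOH line 34 was the lowest of the LOH libraries. Oas1a rose with a log2 fold change of 1.53 ± 0.32 (SE) at an edgeR adjusted p of 0.0421, which the block took to 0.127. Without heterozygous line 6, 23 or 34, where edgeR called 0 of all genes, its log2 fold change was 1.43, 1.49 and 1.65 at an adjusted p of 0.173, 0.171 and 0.186, and without LOH line 23 it was 1.38 at an edgeR adjusted p of 0.0826. The call was also lost with no filter (edgeR adjusted p = 0.0659) and without both libraries of line 6 (edgeR adjusted p = 0.0862). Oas1a has near copies beside it, and the estimated counts may be divided among them.

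Oas3 (ENSMUSG00000032661.9; chromosome 5, 120753098 to 120777661, minus strand) had 3, 2 and 3 counts against 12, 40 and 152 counts in LOH, which is 0.7, 1.51 and 7.08 CPM. The heterozygous libraries were all at the floor, and LOH line 34 held most of the LOH counts. The ratio of the group totals, 204 against 8 counts, was 28.7 after scaling, with an exact 95% interval of 14.3 to 67.5 that covers counting error only. Oas3 passed the filter on low counts through the LOH libraries alone, so a difference was built into its entry to the test. Its edgeR adjusted p was 0.0458 without and 0.0885 with the block. Without heterozygous line 6, 23 or 34, where edgeR called 0 of all genes, it was 0.175, 0.167 and 0.209, and without LOH line 23 it was 0.0646, with fitted log2 fold changes of 4.60, 4.88, 4.63 and 5.06 against 4.73 with all libraries.

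Oasl2, an OAS relative with enzyme activity in mouse, had 0.27, 0.59 and 0.53 CPM against 1.22, 1.55 and 5.82 CPM. The groups did not overlap, and the log2 fold change of 2.64 (SE 0.73) had an edgeR adjusted p of 0.0831, while DESeq2 called Oasl2 (DESeq2 adjusted p = 0.00864). Oasl2 did not pass the filter in every heterozygous library. Eif2ak2 (PKR), the kinase that stops translation on double-stranded RNA, had 26.6, 11.4 and 19.4 CPM against 14.3, 35.4 and 37.2 CPM. Its LOH library of line 6 lay inside the heterozygous range, with a log2 fold change of 0.60 (edgeR adjusted p = 0.427). Oas2 was not tested, with 5 counts in each heterozygous library against 2, 20 and 45. Of the 5 members on chromosome 5, which are these OAS and OASL genes, 4 were tested and 3 of them rose, against 3.55% of all genes. Oas3, 1 of the 3, passed the filter on low counts through the LOH libraries alone.

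The IFIT proteins bind viral RNA ends and block its translation. Ifit1 had 5 counts in each heterozygous library against 4, 28 and 30, and Ifit3 had 7, 8 and 2 against 1, 10 and 6. Both fell under the filter on low counts, and the near copies of Ifit3 may share its reads. Ifit2 was the only 1 of them tested, and it went against the other genes. It had 3.57, 1.19 and 1.74 CPM against 0.93, 1.51 and 0.19 CPM, from 107, 16 and 52 counts against 16, 40 and 4 counts. The groups overlapped, with a log2 fold change of -1.30 ± 0.76 (SE) at an edgeR adjusted p of 0.323.

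All 4 tested genes of ISG15, ubiquitin and ADP-ribose transfer had their LOH libraries above the heterozygous ones, against 16.4% of all genes. In edgeR 0 of the 4 were called after adjustment, with all 4 at an unadjusted p under 0.05, against 3681 of 14537 genes in all. DESeq2 called Parp9, Dtx3l and Parp14, and 2249 of 16449 genes in all. Parp9, which works in a complex with Dtx3l on ADP-ribose and ubiquitin, had 8.84, 11.6 and 11.7 CPM against 15.7, 27.6 and 27.2 CPM, a log2 fold change of 1.14 ± 0.28 (SE) at an edgeR adjusted p of 0.0646. Dtx3l, the E3 ligase of that complex, had 15.1, 13.4 and 14.1 CPM against 19.6, 29.2 and 27.3 CPM, a log2 fold change of 0.84 ± 0.22 (SE) at an edgeR adjusted p of 0.0729. In both genes LOH line 6 was the lowest LOH library. The genes overlap on opposite strands, so reads may be divided between them.

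Parp14, a mono-ADP-ribosyl transferase, had 4.94, 1.85 and 3.17 CPM against 5.47, 21.7 and 12.4 CPM. LOH line 23 was highest and LOH line 6 only just above heterozygous line 6, and the log2 fold change was 1.98 ± 0.57 (SE) at an edgeR adjusted p of 0.0892. Trim25, the ubiquitin ligase that acts on RIG-I, had 40.2, 31.4 and 29.9 CPM against 42.4, 61.0 and 52.5 CPM, a log2 fold change of 0.62 ± 0.22 (SE) at an edgeR adjusted p of 0.137. Without both libraries of line 6, Parp9, Dtx3l and Parp14 passed, together with Oasl1 and Rtp4, in a setting where 1422 of 14727 genes in all were called. Isg15, the ubiquitin-like protein that is among the strongest interferon targets, had 2, 4 and 8 counts against 2, 12 and 39. Usp18, which removes ISG15 from its substrates, had 0, 2 and 3 counts against 1, 6 and 23. Neither was tested, and in both LOH line 34 alone exceeded 20 counts.

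Mx1, a dynamin-like GTPase known for blocking influenza virus in strains with an intact gene, was the only 1 of 4 GTPases tested. It had 3, 7 and 4 counts against 5, 26 and 28 counts, with a log2 fold change of 1.93 ± 0.81 (SE) at an edgeR adjusted p of 0.195. Its main transcript, Mx1-205, is annotated as a target of nonsense-mediated decay and took 72.8% of the counts. Coding transcripts of Mx1 took 28.7% of the pooled heterozygous and 21.3% of the pooled LOH counts. Mx2, annotated as a polymorphic pseudogene, had 1, 1 and 2 counts against 0, 15 and 11. Gbp2, a guanylate-binding protein, had 4, 3 and 7 counts against 4, 52 and 4, so LOH line 23 stood apart. Gbp3 had at most 1 count in a heterozygous library and 1, 10 and 3 in LOH.

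Of 8 other effectors 5 were tested, edgeR and DESeq2 called 0 of those 5, and in all 5 the groups overlapped. Of the 5, 1 (Ifi27) had an unadjusted p under 0.05 in edgeR, against 3681 of 14537 genes in all. Their log2 fold changes ran from -0.18 for Bst2 to 1.23 for Ifi27. Ifi35 (0.51), Cmpk2 (0.84) and Xaf1 (1.21), a gene known to promote apoptosis, lay between them. Bst2 had 10.7, 14.5 and 12.4 CPM against 11.9, 7.44 and 13.9 CPM, and for this gene, which had the highest mean TPM of the 35, the groups overlapped (edgeR adjusted p = 0.724). Rsad2 (viperin), an enzyme that makes a chain-terminating nucleotide, had 2, 5 and 5 counts against 2, 22 and 72. Rtp4, under the filter in edgeR and called by DESeq2, had 4, 2 and 3 counts against 3, 37 and 52, and Ifi44 had at most 5 counts anywhere. Cmpk2, a nucleotide kinase encoded beside Rsad2, had 15, 5 and 7 counts against 4, 14 and 26, and retained-intron transcripts took 87.1% of its heterozygous and 23.4% of its LOH counts.

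**Figure D5:**
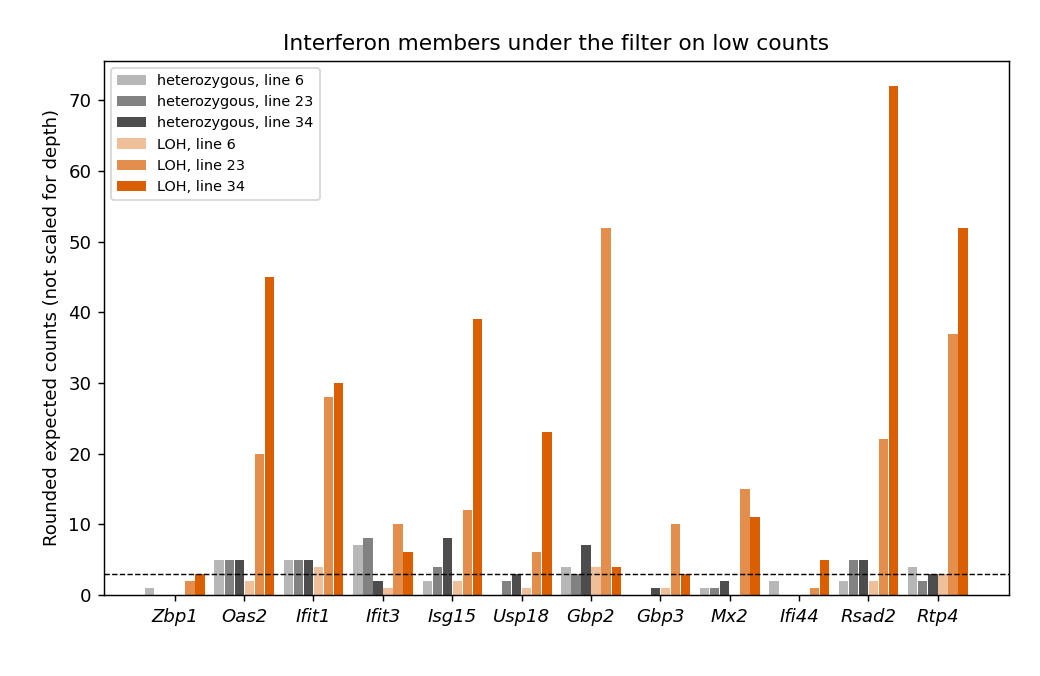
Expected counts, rounded and not scaled for depth, of the 12 interferon genes under the filter on low counts. Grey bars are heterozygous and orange bars LOH libraries of lines 6, 23 and 34, and the dashed line marks 3 counts. LOH line 34 has the tallest bar for Rsad2 (72 counts) and LOH line 23 for Gbp2 (52 counts), while LOH line 6 stays at 4 counts or fewer.

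The genes around these were read from the same fit. No interferon gene was tested among 20 ligands: 16 had no count in any library and 18 never exceeded 3 counts. The other 2 were Ifne, with 0 counts in each heterozygous library and 9, 2 and 1 in LOH, and Ifnk, with at most 7 counts. The receptors were measured well. Ifnar1 had 42.6 ± 2.8 against 49.3 ± 5.21 CPM (SD, n = 3 each), with a log2 fold change of 0.21 (edgeR adjusted p = 0.478), Ifnar2 had 0.32 (edgeR adjusted p = 0.433) and Ifnlr1 had 0.05 (edgeR adjusted p = 0.914). Of 9 receptors and JAK kinases, 1 rose and 0 fell, against 3.55% and 1.66% of all genes. Ifngr2, a chain of the interferon gamma receptor, rose from 32.1 ± 7.21 to 81.3 ± 14.4 CPM. That was a log2 fold change of 1.34 ± 0.24 (SE) at an edgeR adjusted p of 0.0310.

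Among 18 tested genes of upstream sensing, 1 rose and 0 fell, near the 3.55% that rose among all genes, with a median log2 fold change of 0.12. It was Trim56, a ubiquitin ligase of the cytosolic DNA pathway, with 1.12 (SE 0.21, edgeR adjusted p = 0.0325). Of 6 tested further IRF and STAT genes, 1 rose and 0 fell, against 3.55% and 1.66% of all genes, with a median of 0.78. Irf8, known as a factor of myeloid cells, had 0.47, 0.74 and 0.53 CPM against 2.56, 4.49 and 3.63 CPM. It did not overlap between the groups and rose with a log2 fold change of 2.63 ± 0.41 (SE) at an edgeR adjusted p of 0.0235, at a mean of 3.56 CPM in LOH. The leukocyte markers summed to 52.2 to 63.8 CPM in the heterozygous and 23.6 to 102.5 CPM in the LOH libraries, mostly from Cd14, Bst1 and Cd68. Lyz2, Tyrobp and Adgre1 were at 0 in every library. Of 3 tested leukocyte markers, 1 had every LOH library above every heterozygous one, and 1 had every LOH library below, against 16.4% and 16.5% of all genes. The part of leukocyte markers in the rise of Irf8 was not tested.

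Of 48 tested further interferon-stimulated genes, 3 rose and 0 fell, against 3.55% and 1.66% of all genes, and the median was 0.84. Of the 48, 8 passed the filter on low counts without passing it in every heterozygous library. Parp10 rose by 1.56 (SE 0.24, edgeR adjusted p = 0.0220) and Tor3a by 1.13 (SE 0.24, edgeR adjusted p = 0.0449) on the log2 scale. Gbp7, which passed the filter on low counts through the LOH libraries alone, had 1, 0 and 0 counts against 7, 129 and 32 counts in LOH (edgeR adjusted p = 0.0358), and the scaled ratio of 168 to 1 counts has an exact 95% counting interval of 33.5 to 7520. Of 15 negative regulators 0 passed in either direction, with a median of -0.03. Of the 15, 4 had an unadjusted p under 0.05 in edgeR, near the share over all genes (3681 of 14537). With the block 0 genes of these lists were called by edgeR, and the edgeR adjusted p was 0.0662 for Ifngr2 and 0.0587 for Irf8.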

How the data were processed

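The 35 genes and the gene lists were chosen with earlier results of these data known. RNA was extracted with TRIzol and made into stranded total RNA libraries, per the labels. FastQC 0.11.5, STAR 2.5.2b, RSEM 1.3.0, DESeq2 1.44.0 and the build GRCm38.p5 are named without roles, per the submitters' processing notes. GENCODE mouse release 16 was the annotation, as the deposited tables' names show. The expected counts that the authors deposited are estimates for each gene or transcript. TPM values are the authors' abundances per length, and isoform percent values are the share of each transcript in its gene, as deposited. The normalized signal tables that the authors deposited hold expected counts divided by a size factor, and here they supplied gene names and the protein-coding set. Strand settings and read filters are not given in the sources used here.

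Libraries were grouped by title. Expected counts were rounded to whole numbers, and genes were kept by filterByExpr (at least 10 counts in a library of median size, in at least 3 libraries), scaled by TMM and tested with edgeR 4.0.16 (R 4.3.3), with two-sided p-values adjusted by Benjamini and Hochberg's method and called under 0.05. SE is the log2 fold change over the square root of F. Ratios within a line used a prior count of 2. Tried beside it were upper quartile and RLE scaling, no filter, 10 counts in every library, protein-coding genes, the line as a block, DESeq2 1.42.0, limma 3.58.1 on log2(TPM + 1) and log2(TPM + 0.1), and each library or line left out. The fit was tested on simulated data.

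Every transcription factor, sensor, called gene and non-overlapping tested gene among the 35 is named with its values, the others by range or counts, and genes of other lists where called, with Ifnar1, Ifnar2 and Ifnlr1 always. Some items of the design and of the rule are not reported here. Values of scarce genes outside this rule were named after they were seen. Libraries were paired by the organoid line number in their titles, and no label states that the libraries of a line came from 1 tumour. The correlation of their deviations from the group means was -0.3, 0.01 and 0.29 in lines 6, 23 and 34, and -0.39 to 0.3 between different lines, a range that holds all 3. Coordinates came from GENCODE mouse release 21 (GRCm38). Tables and figures used Python 3.11.15, pandas 2.3.3 and matplotlib 3.10.9.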

Additional observations from a re-analysis of the deposited data

Results flagged for a closer look

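In 6 of the 23 tested interferon genes the LOH to heterozygous log2 ratio had opposite signs in different organoid lines, with 1 library of each kind in a line, and the difference between lines was not tested. Ifih1 had ratios of -1.56, 0.89 and 1.77 in lines 6, 23 and 34, a spread of 3.32. Ifit2 had -1.84, 0.33 and -2.74, a spread of 3.07. Cmpk2 had -0.88, 0.43 and 2.02, a spread of 2.9 from few counts. Eif2ak2 had -0.89, 1.62 and 0.94, a spread of 2.52. Ifi35 had 1.01, -0.27 and 0.62, a spread of 1.28, and Bst2 had 0.15, -0.96 and 0.16, a spread of 1.12.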

How the results depend on the processing

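The number of interferon genes called was 4, and it was 1 with the organoid line as a replicate block, 11 with DESeq2, and 1 with limma on log2(TPM + 1) and 1 on log2(TPM + 0.1). Leaving out 1 library or line gave 0 to 16. There were 16 of 29 tested without LOH line 6, 1 without LOH line 23, 5 without both libraries of line 6, and 0 without any heterozygous library or without line 23 or line 34, where edgeR gave 11, 15, 11, 9 and 6 genes at an unadjusted p under 0.05. Over all genes these settings gave 2966, 2637, 2272, 2253 and 2097 at that threshold. The count over all genes, 757, was 213 with the block, 2249 with DESeq2, 1911 and 1753 with limma on log2(TPM + 1) and log2(TPM + 0.1), and 0 to 2449 over the libraries and lines left out. The median log2 fold change of the interferon genes, 1.14, was 0.34 and 0.43 on the 2 TPM scales, which keep 15 of them. The cause was not tested. Bst2 ran from -0.39 to 0.15 over the libraries and lines left out and reversed without LOH line 23 (0.04) and without line 23 (0.15), and Cmpk2 ran from -0.18 to 1.52 and reversed without line 34. Over 390 values of single genes under the alternatives, 336 kept direction and call, 34 lost the call, 17 gained it and 3 reversed. The block ended the calls of Irf7, Oas1a and Oas3 and changed no other call among the 23. Depth limits 12 of the 35 genes, which were under the filter used here, though some were tested under alternatives: Rtp4 was called by DESeq2, and Ifit1, Mx2, Oas2 and Rtp4 by edgeR without LOH line 6. Counting intervals leave out the spread between cultures.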

Other observations

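The interferon genes were spread over 14 chromosomes in GENCODE, with 6 on chromosome 16, 5 on chromosome 11 and 5 on chromosome 5. Chromosome 5 held the OAS and OASL genes, chromosome 19 held the 3 IFIT genes, and chromosome 3 held Gbp2, Gbp3 and Ifi44. On chromosome 19 Ifit2 alone was tested, and on chromosome 3 none of the 3 had enough counts.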
